A study of Nannochloropsis oceanica with 12 samples.

Results

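Isolated lactyllysine peaks are the listed peaks of Nannochloropsis oceanica that lay far from any other listed peak. A peak was counted as isolated when its start was over 6000 bp from the start of the nearest other listed peak on its chromosome, and its midpoint over 50000 bp from the outermost listed peaks of that chromosome. The rule selected 509 of the 5375 peaks in the authors' deposited table, or 9.47%. It used positions only and not the levels described here. Which peaks were listed, and so could count as neighbours, still depended on the authors' test of the same data. Another 129 peaks passed the distance but lay within 50000 bp of an outermost peak. Past that margin there were 4438 peaks with a closer neighbour, which serve as the nearest comparison.

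The study compared nitrogen-deprived with nitrogen-replete cultures of strain IMET1 of this marine, oil-storing microalga. In the deprived group, cells at an OD750 of 2.5 spent 72 hours in f/2 medium lacking nitrogen, and in the replete group they spent the same time in f/2 medium with its nitrogen source. Both groups were kept under constant illumination at 50 µmol of photons per square metre and second, and set up as 3 cultures each, and chromatin was immunoprecipitated with an anti-L-lactyllysine antibody, giving 3 libraries per group. The labels also describe 3 libraries without antibody per condition, whose values were not analysed here. In such bulk chromatin, a stronger mark per cell, more cells carrying it and better recovery of chromatin cannot be told apart.

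Lactylation attaches a lactyl group, derived from lactate, to lysine side chains. It belongs to the acyl marks of histones, as acetylation does, and in mouse and human cells histone lactylation has been described at promoters of transcribed genes. Where the mark lies in this alga relative to genes was not analysed here, since no annotation of the files' coordinates was used. When nitrogen runs out, Nannochloropsis slows its growth and stores carbon as triacylglycerol, the background against which the deprived cultures were profiled.

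All peaks in the table passed the authors' FDR of 0.05, all are 401 bp wide, and they lie on 30 chromosomes. Their levels are given as group means of reads scaled between libraries by the authors (normalised reads), from which whole reads per library were recovered. Library letters A to C order the 3 libraries of a group by the value of 1 read, since nothing in the table links them to a replicate number, and reads of a single peak are given in that order. Reads in the listed peaks numbered 1351261 to 1620064 per deprived library and 19082 to 89564 per replete library. The isolated peaks held 10.2% of these reads in each deprived library, against 9.75%, 10.7% and 9.20% in the replete ones. Those shares stand beside the 9.47% of peaks that the isolated peaks make up.

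The first question was how the mark at isolated sites differed between deprived and replete cells. Of the 509 isolated peaks, 506 were listed as higher in deprived cells and 3 as lower in the authors' deposited table, which is 99.4% and 0.589%. Over all 5375 listed peaks those shares were 99.2% and 0.819%, so the direction of the isolated peaks stayed near the background. At an FDR under 0.01, 496 isolated peaks were higher and 3 lower in the authors' deposited table, beside 96.4% and 0.67% of all listed peaks. limma on log2(normalised reads + 1) over all 5375 peaks, with Benjamini-Hochberg adjustment and a threshold of 0.05, called the same numbers, 506 higher and 3 lower, beside 98.9% and 0.763% of all peaks. In 506 isolated peaks every deprived library lay above every replete library, and in 3 the reverse held, beside 99.2% and 0.819% of all listed peaks. The list was selected by a test of these same libraries, so such counts describe the list.

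The median isolated peak carried 290.5 normalised reads in deprived cells (quartiles 214.1 and 378.8) and 5.71 in replete cells (quartiles 1.48 and 11.3) as group means. In reads per library, the deprived medians were 313, 264 and 260 and the replete medians 12, 0 and 0. Without replete library A the median replete level was 0. The 506 higher peaks ranged from 84 to 888, 49 to 665 and 94 to 729 reads in the deprived libraries, against 0 to 105, 0 to 67 and 0 to 50 in the replete ones. Across peaks these ranges overlap at the edges, while within each isolated peak the groups stayed apart. Deprived libraries varied little from one another at these sites. The coefficient of variation over the 3 libraries had a median of 8.82% in higher isolated peaks and 9.03% in other higher peaks.

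**Figure D1:**
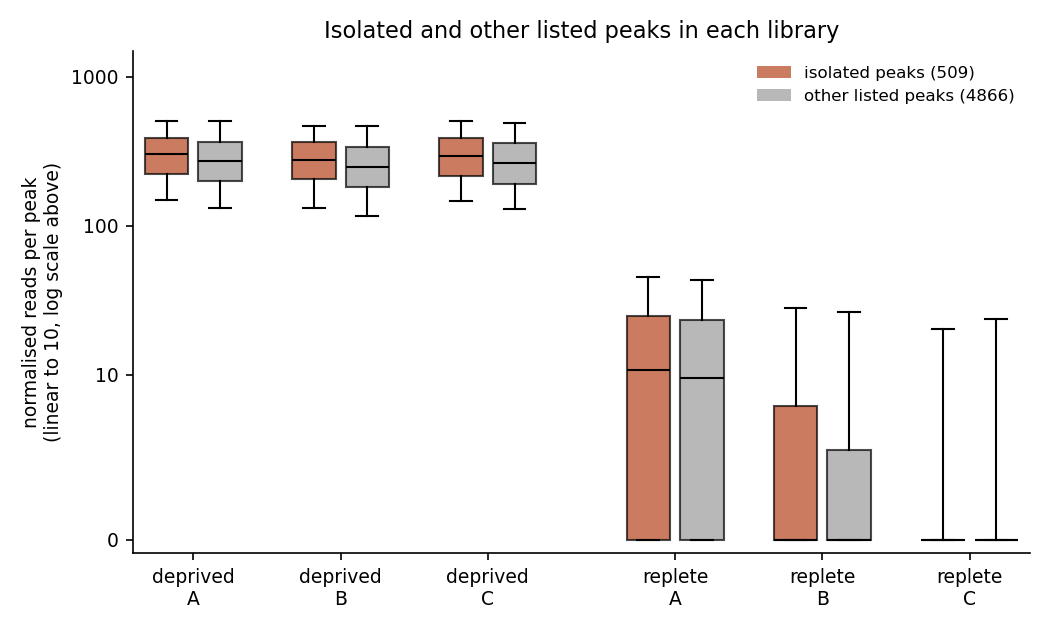
Normalised reads per peak in each of the 6 ChIP libraries (axis linear up to 10 and logarithmic above), for isolated peaks (orange) and all other listed peaks (grey). Lines mark medians, boxes quartiles and whiskers the 5th and 95th percentiles. Isolated peaks have the higher median in each deprived library, and the medians of replete libraries B and C stand at 0 in both sets.

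Isolated peaks carried slightly more mark in deprived cells than the other listed peaks. Within deprived libraries A, B and C the median isolated peak had 1.11, 1.11 and 1.11 times the reads of the median other peak, with 313 against 281 reads, 264 against 237 and 260 against 235. The ratio averaged 1.11 ± 0.00434 (SD, n = 3 libraries), and because it is formed inside a library it does not depend on the scaling between libraries. By mean reads the ratio was 1.08 ± 0.0015 (SD, n = 3). In replete libraries the ratio of mean reads was 1.03, 1.15 and 0.968, or 1.05 ± 0.0905 (SD, n = 3), so the replete libraries did not share a direction. No test was made of these ratios, because peaks are not replicates and both sets come from the same libraries.

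Isolated peaks were fewer among the weak and more among the strong listed peaks. Isolated peaks made up 166 of the 1344 listed peaks in the top 25% by deprived level, and 93 of the 1343 in the bottom 25%, which is 32.6% and 18.3% of the isolated peaks. In the highest 10% of all listed peaks by level there were 68 isolated peaks, or 13.4% of them, and in the lowest 10% there were 29, or 5.70%. Among the very strongest the excess was small, with 5.70% of isolated peaks in the highest 5%. The highest level was 787.6 normalised reads among isolated peaks and 795.8 among the other peaks past the margin.

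The chromosomes did not all show the shift. The median deprived level of isolated peaks was above that of the other peaks past the margin on 22 of 30 chromosomes and below it on 8. The ratio of the medians ran from 0.851 on chromosome 15 (247.3 against 290.5 normalised reads, 13 isolated peaks) to 1.51 on chromosome 11 (370.7 against 245.5, 21 isolated peaks). Chromosome 9 was also high, at 370.6 normalised reads in 23 isolated peaks against 274.6 in the others. Chromosome 27 was among those below 1, with 256.6 in 21 isolated peaks against 288.9 in the others. With 7 to 29 isolated peaks per chromosome, single chromosomes rest on few sites.

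The second question was whether the level went on changing with distance. Past the margin, the median deprived level was 220.5 normalised reads for the 574 peaks with a neighbour within 2000 bp, 259.4 for 1517 peaks at 2000 to 3000 bp and 269.0 for 1160 peaks at 3000 to 4000 bp. It was 281.8 for 737 peaks at 4000 to 5000 bp and 280.4 for 450 peaks at 5000 to 6000 bp, just short of the rule's distance. Among isolated peaks it was 295.3 in 213 peaks at 6000 to 7000 bp, 289.5 in 118 at 7000 to 8000 bp and 289.8 in 126 at 8000 to 10000 bp. The 52 peaks that were farther than 10000 bp from any other had a median of 265.6 normalised reads. Medians thus climbed over the shorter distances, stayed level past 6000 bp and were lower in the farthest sites, with quartiles of 189.6 and 365.8 there that overlap those of the other ranges.

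**Figure D2:**
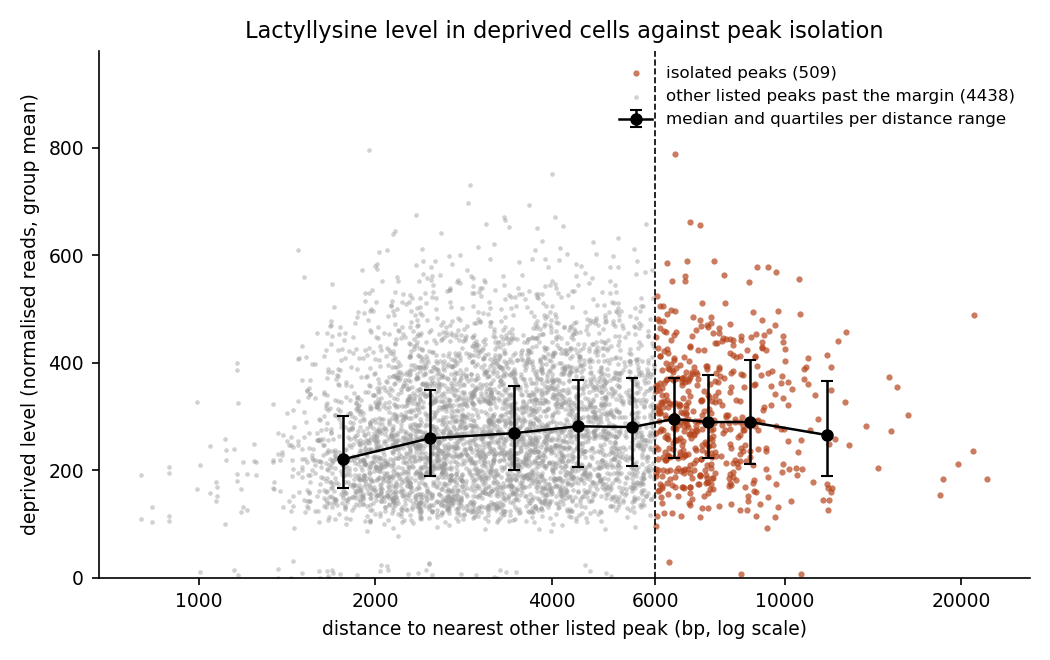
Deprived level (group mean in normalised reads) of each listed peak past the margin against the distance to its nearest listed neighbour (bp, logarithmic axis), with isolated peaks in orange, the others in grey and the rule's 6000 bp as a dashed line. Black points are medians with quartiles per distance range, rising from 220.5 within 2000 bp to 295.3 at 6000 to 7000 bp and standing at 265.6 beyond 10000 bp.

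Across the 509 isolated peaks, distance and deprived level had a Spearman's rho of -0.0168. Across the 4438 other peaks past the margin it was 0.142. Both describe peaks that share the same 6 libraries, and peaks are not independent replicates. Libraries ranked the isolated peaks alike in deprived cells, with a rho of 0.938 to 0.945 between pairs of deprived libraries over the 506 higher peaks. Between pairs of replete libraries rho was 0.198 to 0.298 over the same peaks, where most values are 0 or a few reads.

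The third question was how much mark isolated sites kept in replete cells. All 3 replete libraries stood at 0 in 100 isolated peaks, or 19.6%, against 22.2% of the other listed peaks. In 205 isolated peaks 1 replete library held reads, in 147 there were 2, and in 57 all 3 did. Library A was the one with reads in 162 of the 205, library B in 25 and library C in 18. Each replete library was at 0 in about the same share of isolated as of other peaks, at 29.7% against 30.2% for A, 63.7% against 66.4% for B and 75.0% against 75.1% for C. Such zeros are what went into the group mean, and reads may still have fallen there before any step that set them to 0. The 19.6% leans on library A, since 51.5% of isolated peaks were at 0 in both of the other replete libraries. By distance, 35 of 213, 26 of 118 and 21 of 126 isolated peaks were at 0 in every replete library in the ranges up to 7000, 8000 and 10000 bp, and 18 of 52 beyond.

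Fold changes of isolated peaks were close to those of the rest. The median log2 fold change was 5.48 over the 509 isolated peaks (quartiles 4.49 and 7.65) and 5.48 over the other 4866 (quartiles 4.38 and 8.49) in the authors' deposited table. A log2 fold change of at least 4 was listed for 437 of the 506 higher isolated peaks, or 86.4%, against 83.9% of the other higher peaks in the authors' deposited table. For the 406 higher isolated peaks with a replete read, deprived over replete group means gave a median ratio of 39.9 (quartiles 22.2 and 74.1), against 36.0 (quartiles 20.1 and 77.3) in the other peaks. For the 100 isolated peaks with no replete read, a floor of 3 reads in the group as a whole gave lower bounds of 95.3-fold to 573-fold, with a median bound of 282-fold.

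The size of these folds rests on the scaling between libraries. When each library was instead brought to the same total over all listed peaks, called equal-reads scaling here, the median bound of those 100 peaks was 5.65-fold (1.89 to 11.5). In the 406 others the median ratio was 1.34, and 162 of them had a ratio below 1, which is 32.0% of the higher isolated peaks, against 31.7% of the other higher peaks. limma under that scaling called 116 isolated peaks higher and 19 lower, where 24.8% and 3.93% of all listed peaks were called. Among those 19 were 16 that the authors' deposited table gives as higher, beside 167 of the 211 called lower among all listed peaks. Equal-reads scaling removes any difference in total signal between the groups by construction.

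The 5 most isolated peaks, named like all peaks by the table's row numbers, mostly carried less mark than the median isolated peak. Peak_1466 on chromosome 15 (936665 to 937065) lay 22155 bp from its nearest neighbour, the longest such distance. It had 208, 175 and 147 deprived reads against 0, 0 and 10 replete reads. The authors' deposited table lists a log2 fold change of 5.44 for it (FDR = 2.03e-05). The replete libraries were thus carried by C alone, and under equal-reads scaling the ratio of group means was 0.696 instead of 49.3. Peak_1465, its neighbour on the lower-coordinate side (901402 to 901802), was itself isolated by 18624 bp. It had 189, 194 and 145 deprived reads and no replete read, at least 189-fold higher.

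Peak_3902 on chromosome 4 (89260 to 89660) stood 21036 bp from the nearest listed peak, with gaps of 21036 and 21221 bp on its sides. It was the strongest of these 5, with 538, 463 and 408 deprived reads and no replete read, at least 505-fold higher. Peak_2820 on chromosome 23 (126722 to 127122), 20929 bp from its neighbour, had 269, 200 and 208 deprived reads against 29, 8 and 0 replete reads. Peak_534 on chromosome 11 (55589 to 55989), at 19717 bp, had 250, 175 and 187 deprived reads and no replete read, at least 219-fold higher. In each of the 5 the deprived libraries lay above all replete ones, as in 99.2% of all listed peaks. Their deprived group means were 183.4 to 489.3 normalised reads, and 4 of the 5 stood below the isolated peaks' median of 290.5. Under equal-reads scaling the bounds of peak_1465, peak_3902 and peak_534 were 3.81-fold, 10.1-fold and 4.38-fold, and the ratio of peak_2820 was 0.80.

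**Figure D3:**
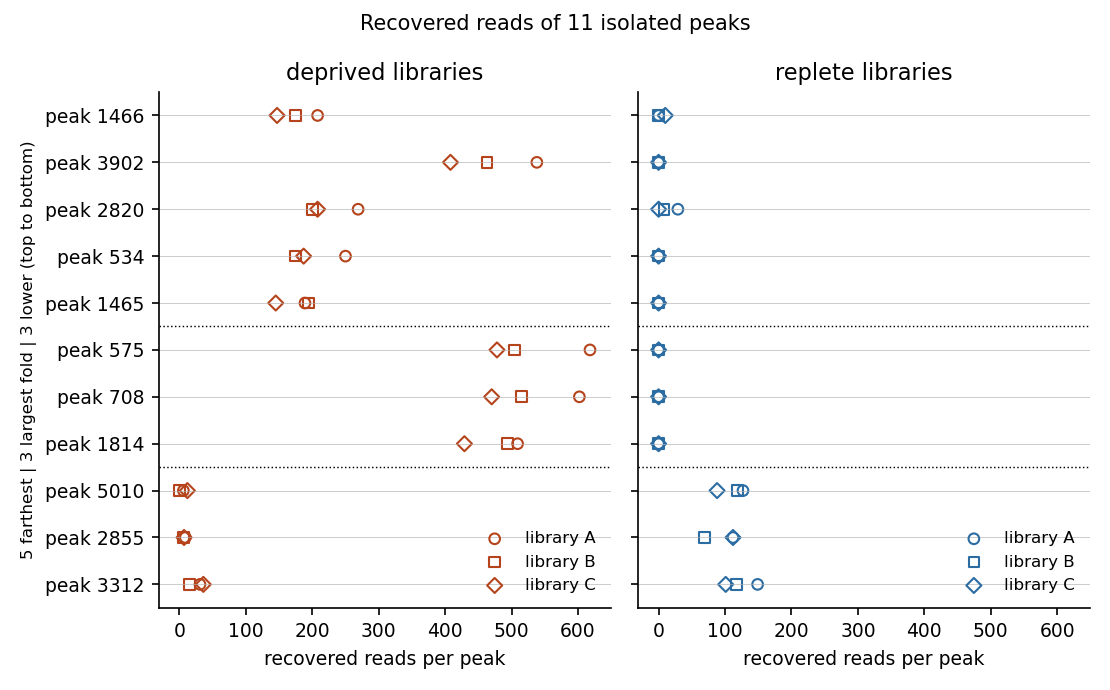
Recovered reads per library of the 5 isolated peaks with the longest distance, the 3 with the largest log2 fold change and the 3 that were lower in deprived cells, from top to bottom, with deprived libraries on the left and replete libraries on the right. The upper 8 peaks have 145 to 618 reads in every deprived library and at most 29 in any replete one, and the lowest 3 have at most 36 reads in the deprived and at least 69 in the replete libraries.

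The strongest isolated site was peak_3874 on chromosome 30 (374497 to 374897), 6492 bp from its neighbour. It had 888, 647 and 729 deprived reads against 19, 13 and 0 replete reads, a group mean of 787.6 against 9.54 normalised reads. Peak_3425 on chromosome 28 (483590 to 483990) followed with 709, 597 and 595 deprived reads against 76, 1 and 7 replete reads. Replete library A held nearly all replete reads there. Peak_704 on chromosome 11 (1018751 to 1019151) had 710, 665 and 516 deprived reads against 25, 3 and 0 replete reads.

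The next in level, peak_5142 on chromosome 8 (1137986 to 1138386), had 638, 510 and 546 deprived reads against 3, 0 and 0 replete reads. Peak_3191 on chromosome 26 (250775 to 251175) had 632, 545 and 514 deprived reads against 23, 0 and 0 replete reads. The authors' deposited table gave log2 fold changes of 6.23, 4.55, 6.11, 9.08 and 6.12 for these 5 peaks in the order of level, and their FDR was at most 5.16e-05. Their distances were 6492 to 7553 bp, around the isolated peaks' median of 7317 bp. Under equal-reads scaling limma no longer called peak_3874, peak_3425, peak_704 and peak_3191, with Benjamini-Hochberg adjusted p-values of 0.318, 0.562, 0.251 and 0.154. Their ratios of group means were then 2.47, 1.05, 3.47 and 4.55, instead of 82.6, 26.05, 79.0 and 86.4. Peak_5142 remained called in limma at an adjusted p of 0.0266.

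At the other end, the weakest higher sites had deprived levels of 92.4 to 114.6 normalised reads. Peak_2923 on chromosome 24 (103891 to 104291) had 114, 49 and 102 deprived reads and no replete read, at least 95.3-fold higher, or at least 1.89-fold under equal-reads scaling. Peak_1754 on chromosome 17 (567027 to 567427) had 84, 82 and 106 deprived reads against 12, 10 and 25 replete reads. The authors' deposited table lists a log2 fold change of 2.59 for it (FDR = 1.03e-05). The groups kept apart, in a rise well under the median of 5.49 over the 506 higher isolated peaks. Under equal-reads scaling limma turned its log2 fold change to -2.60 (Benjamini-Hochberg adjusted p = 0.11).

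Peak_283 on chromosome 1 (1487397 to 1487797) had 105, 100 and 116 deprived reads against 11, 0 and 0 replete reads. Under equal-reads scaling its adjusted p in limma was 0.235. It bordered a gap of 49736 bp on its lower-coordinate side, the longest beside any isolated peak. Peak_2081 on chromosome 2 (123004 to 123404) had 123, 99 and 104 deprived reads against 36, 20 and 0 replete reads, and its adjusted p in limma (Benjamini-Hochberg) was 0.047. That call was lost without any 1 of the deprived libraries or without replete library B, at adjusted p-values of 0.061 to 0.117 in limma. Under equal-reads scaling its adjusted p in limma was 0.97, with a log2 fold change of 0.116. The ratio of group means of peak_2081 was 0.215 under that scaling, so the measures differed in direction. Peak_2882 on chromosome 23 (513063 to 513463) had 101, 117 and 109 deprived reads against 45, 3 and 6 replete reads. Its adjusted p in limma (Benjamini-Hochberg) was 0.0161, and 0.0557 and 0.0545 without deprived library B or C. Under equal-reads scaling limma turned its log2 fold change to -1.70 (adjusted p = 0.145). Replete library A was the highest of its group at both sites.

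Among isolated peaks, those with the 3 largest log2 fold changes had no replete read, and the maximum among the other listed peaks was higher, at 11.49 in the authors' deposited table. Peak_575 on chromosome 11 (333350 to 333750) was given a value of 11.21 by the authors' deposited table (FDR = 9.41e-19). It had 618, 504 and 478 deprived reads and no replete read, at least 573-fold higher. Peak_708, also on chromosome 11 (1049392 to 1049792), was listed at 11.20 in the authors' deposited table and had 602, 515 and 470 deprived reads and no replete read, at least 569-fold higher. Peak_1814 on chromosome 18 (170030 to 170430) was listed at 11.06 in the authors' deposited table, with 509, 494 and 429 deprived reads and no replete read, at least 514-fold higher. Under equal-reads scaling the bounds of these 3 were 11.5-fold, 11.4-fold and 10.3-fold.

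Just 3 isolated peaks had less mark in deprived than in replete cells. Peak_5010 on chromosome 8 (495086 to 495486) had 6, 0 and 12 deprived reads against 127, 119 and 88 replete reads. The authors' deposited table lists a log2 fold change of -3.98 for it (FDR = 3.05e-06). Peak_2855 on chromosome 23 (344027 to 344427) had 9, 6 and 7 deprived reads against 112, 69 and 112 replete reads. The authors' deposited table lists a log2 fold change of -3.61 for it (FDR = 8.12e-11). Peak_3312 on chromosome 27 (393067 to 393467) had 31, 15 and 36 deprived reads against 149, 117 and 101 replete reads. The authors' deposited table lists a log2 fold change of -2.01 for it (FDR = 7.01e-05). Groups did not overlap at any of the 3 sites, nor at any of the 44 lower peaks in the whole list. limma gave log2 fold changes of -4.53 ± 1.05, -3.44 ± 0.322 and -2.07 ± 0.39 (SE) with Benjamini-Hochberg adjusted p-values of 0.00956, 0.000441 and 0.00518.

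These 3 sites were isolated by 8419, 10663 and 6329 bp, and their replete group means of 95.6 to 116.9 normalised reads were about those of the weakest rising sites in deprived cells. The other 41 lower peaks of the table were not isolated. Past the margin, lower peaks numbered 17 of 574 with a neighbour within 2000 bp, 12 of 1517 at 2000 to 3000 bp, 5 of 1160 at 3000 to 4000 bp, 3 of 737 at 4000 to 5000 bp and 1 of 450 at 5000 to 6000 bp. The isolated peaks' 3 of 509, or 0.589%, stand beside 0.819% of all listed peaks.

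Just inside the rule's distance, peak_1754 and peak_4628 lay 6012 and 6016 bp from their neighbours, with 95.7 and 202.6 normalised reads in deprived cells against 15.9 and 3.31 in replete cells. Just outside it, peak_4461 and peak_1319 lay 5992 and 5987 bp away, with 427.5 and 265.5 normalised reads in deprived cells against 9.91 and 1.78 in replete cells.

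Distances of the isolated peaks to the nearest listed peak had a median of 7317 bp (quartiles 6564 and 8521), against 3109 bp for the other peaks past the margin. The gaps on both sides together had a median of 17733 bp (quartiles 15309 and 21171). The longer gap was 1.28 times the shorter at the median, against 1.78 times for the other peaks past the margin, and over 2 times in 52 of the 509 isolated peaks. Within 25000 bp on either side there were 7 other listed peaks at the median (quartiles 6 and 8), against 9 (quartiles 7 and 10) around the other peaks past the margin. The rule requires the shorter gap of an isolated peak to be over 6000 bp. These differences therefore restate, at least in part, the distances it used.

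Isolated peaks often followed one another. In 212 cases the peaks on both sides were not isolated, while 72 pairs, 29 runs of 3, 12 runs of 4 and 3 runs of 6 held the other 297 isolated peaks. The rule needs a long gap on either side, and neighbouring listed peaks share the gap between them. A peak beside an isolated peak therefore already meets the distance on that side. Runs are thus favoured by the distances that the rule used, and clustering beyond that was not tested. The runs of 6 were picked out for description with their values in view. One spanned 858280 to 937065 of chromosome 15, and the other 2 spanned 75124 to 127122 and 506409 to 548533 of chromosome 23. All 18 peaks in them were higher in deprived cells, as were 99.2% of all listed peaks. On chromosome 15 their deprived levels were 152.4 to 391.2 normalised reads against 0 to 16.2 in replete cells. On chromosome 23 they were 166.5 to 369.8 against 2.66 to 14.8 in the first run, and 114.6 to 409.6 against 0 to 16.5 in the second.

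Peaks next to the isolated ones had lower levels than the isolated peaks themselves. Leaving out neighbours that were isolated too, the next peak on the lower-coordinate side had a median deprived level of 271.9 normalised reads (328 peaks) and the next on the higher-coordinate side 269.5 (328 peaks), beside 290.5 in the isolated peaks. From the second to the fifth place on either side medians were 258.9 to 269.4. An isolated peak exceeded both adjacent listed peaks in 182 of 509 cases, or 35.8%, and was below both in 147, or 28.9%. For the other peaks past the margin those shares were 32.8% and 33.6%.

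**Figure D4:**
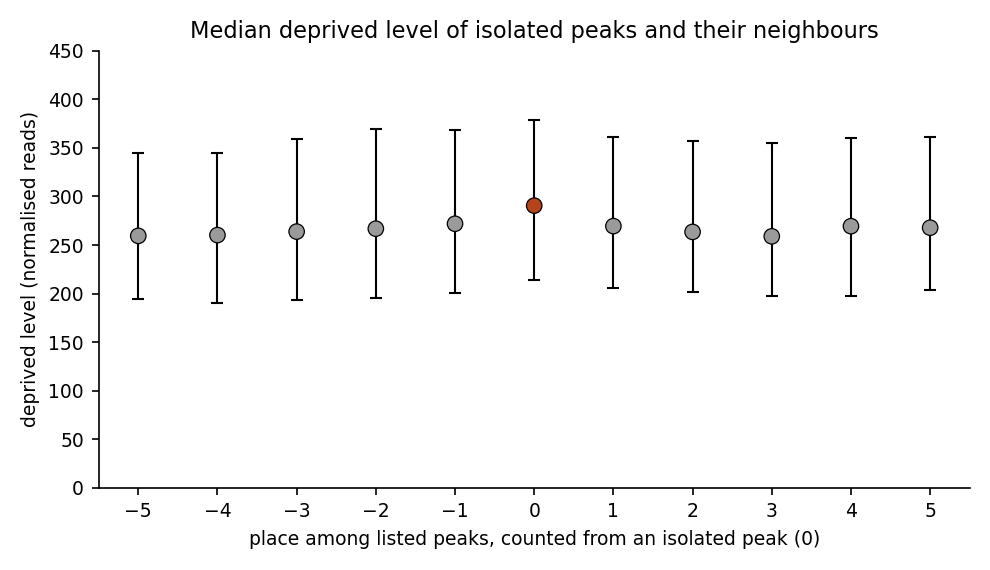
Median deprived level in normalised reads, with quartiles as bars, of the isolated peaks (orange, place 0) and of the listed peaks 1 to 5 places away on either side that were not isolated (grey). The isolated peaks stand at 290.5, their neighbours between 258.9 and 271.9, with quartiles that overlap widely.

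Isolated peaks were found on all 30 chromosomes, in unequal shares. Among listed peaks past the margin 10.3% were isolated. The share was highest on chromosome 23, with 29 of 85 peaks or 34.1%, then on chromosome 27 with 21 of 77 or 27.3% and on chromosome 30 with 12 of 46 or 26.1%. It was lowest on chromosome 2, with 14 of 328 or 4.27%, and on chromosome 7, with 10 of 232 or 4.31%. Distance was what the rule used, so these shares depend on how peaks were spaced on each chromosome. Over the 30 chromosomes, listed peaks per Mb and the isolated share had a Spearman's rho of -0.737. The shares thus restate the density of listed peaks in part.

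**Figure D5:**
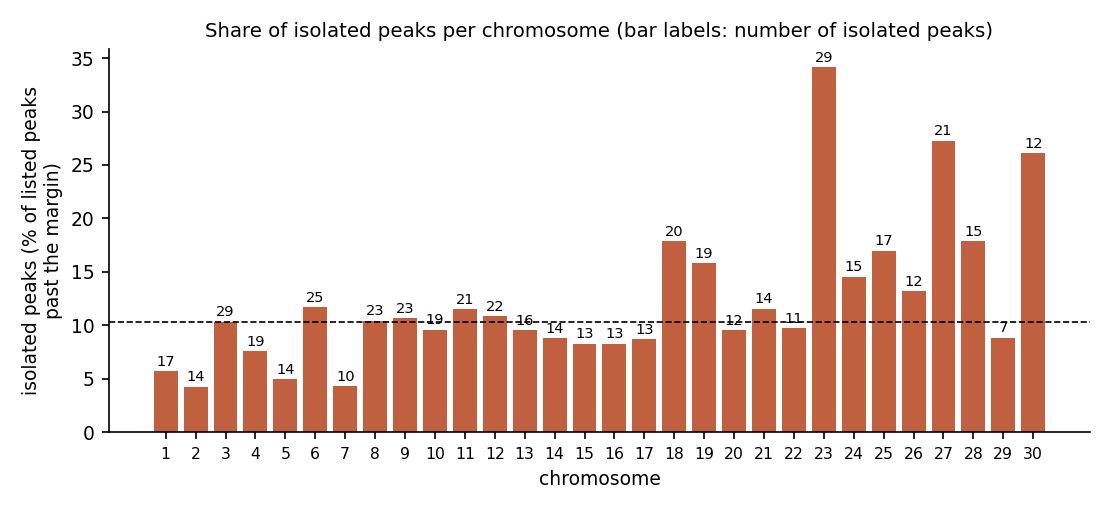
Isolated peaks as a percentage of the listed peaks past the margin on each chromosome, with their number above each bar and the share over all chromosomes, 10.3%, as a dashed line. Chromosomes 23, 27 and 30 stand highest at 34.1%, 27.3% and 26.1%.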

How the data were processed

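Cultures were kept at 25 °C with 1.5% CO2, per the labels' protocols, and cells were fixed with 1% formaldehyde. Libraries were sequenced as single reads of 150 bp. Tools named without a version in the submitters' processing notes are MACS2, BWA, Trim Galore, deepTools and Picard. Not given in the sources used here are the genome build, the tool behind the differential table and any background subtraction.

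The authors deposited 1 table of differential peaks, with log2 group means of scaled reads and a log2 fold change, deprived minus replete, per peak. It also holds the authors' p-value and FDR. Group means under 1 are listed as 0, and these were rebuilt from the mean over both groups. Each group mean is the sum of whole reads of 3 libraries times what 1 read is worth, divided by 3. The worths that explain the lowest values were 0.969, 1.05 and 1.13 normalised reads for the deprived and 0.888, 0.902 and 1.12 for the replete libraries. Every mean then had exactly 1 solution, except those at 0 (1179 replete and 5 deprived), whose libraries were set to 0. Of 500 values per group with altered decimals 0 were solved. Simulated reads came back exactly in 100% of the 600 deprived and 451 replete peaks tried. Both checks left out replete means under 1, so those rebuilt from the mean over both groups were not covered.

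limma 3.58.1 (R 4.3.3) was fitted on log2(normalised reads + 1) over all listed peaks with Benjamini-Hochberg adjustment, and tested on simulated data of 5375 peaks. It called 100 of the 100 peaks simulated with a 2-fold change and 100 of the 100 with a 4-fold change, beside 12 false calls. Most simulated peaks were unchanged, unlike the listed ones. Every simulated library was drawn from the deprived means and spread. The many zeros of the replete libraries were thus not simulated, and the test does not speak to them. Other steps used Python 3.11.15, numpy 2.4.6, scipy 1.17.1 and pandas 2.3.3. Bounds use a floor of 3 reads over a group and cover counting error only. Replicates are the labels' 3 cultures per condition.

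Named peaks followed a rule. It took the 5 with the longest distance, the 5 highest and 5 lowest in deprived level among higher ones, the 3 largest log2 fold changes, all lower ones, and 2 on either side of the distance threshold. The members and lists were chosen with earlier results of these data known. The rule also provided for genes, but no annotation of the files' coordinates was used, so no gene is named and no sequence is shown.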

Additional observations from a re-analysis of the deposited data

How the results depend on the processing

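The rule, the scaling and the libraries were varied in 83 alternative values for the group results, of which 65 kept within the spread of the reported one, or within its 95% exact interval for shares. That interval counts peaks as independent, which they are not, so for shares the tally does not reflect the spread between libraries. The check without peaks next to an absent row number, and all alternatives for the 1.11 ratio of isolated to other peaks and for the share at 0, were chosen after seeing the data. That ratio of group-mean medians, 1.11 as reported, was 1.10 with a distance over 5000 bp (959 peaks), 1.08 over 8000 bp (178 peaks), 1.12 with no margin (638 peaks) and 1.10 to 1.12 without each deprived library. At an FDR under 0.01, 97.4% of isolated peaks were higher, beside 96.4% of all listed peaks. limma called 93.3% higher with a pseudocount of 0.1. With the same total in every library (equal reads) it called 22.8% higher and 3.73% lower, beside 24.8% and 3.93% of all listed peaks. The median levels were then 143.5 deprived and 79.4 replete normalised reads. Requiring a mean of 100 normalised reads left 422 isolated peaks, 100% called higher and 0% lower, since the 3 lower ones fall under it. Leaving out each library gave 90.2% to 99.4% called higher and 0.589% called lower throughout, a median deprived level of 284.1 to 298.5 and a median replete level of 0 to 7.63. The share at 0 in every remaining replete library was 23.2% to 51.5%, and the 51.5% came without replete library A, as did the replete median of 0. Shares over all listed peaks are not given for the left-out libraries, the pseudocount of 0.1 and the mean of 100. Whether isolated peaks differ from the whole list in those settings was not tested. For the named peaks, 192 of 210 limma values kept direction and call. With equal reads the limma log2 fold change turned to -2.60 for peak_1754 and to -1.70 for peak_2882. For peak_1466, peak_2081 and peak_2820 it stayed positive, at 3.64, 0.116 and 1.69. Their ratios of group means with equal reads were nevertheless below 1, at 0.696, 0.215 and 0.80. In 16 values the call was lost, 8 of them with equal reads for peaks other than peak_2081, 6 for peak_2081 and 2 for peak_2882 without a deprived library. No paired analysis was possible because no column of the table has a replicate number. Where all replete libraries stand at 0, folds are bounds, and the sequencing depth of the libraries is unknown, since 19082 to 89564 counts only replete reads in the listed peaks.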

Other observations

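Isolated peaks were fewer in the middle of chromosomes. With the span between the outermost listed peaks divided into 3 equal parts, 182 of 1501 peaks past the margin, or 12.1%, were isolated in the lower-coordinate part, 138 of 1995, or 6.92%, in the middle and 189 of 1451, or 13.0%, in the higher-coordinate part. Median deprived levels of isolated peaks were 307.4, 277.7 and 283.8 normalised reads in these parts, above the 266.3, 263.1 and 257.5 of the other peaks past the margin in each. The rule uses distances, so the shares depend on how listed peaks are spaced. The density of listed peaks was not measured in these parts.

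The table's row numbers run in order of position on every chromosome and reach 5389, with 14 numbers absent. If these numbers stand for tested peaks that missed the authors' FDR, 8 isolated peaks have such a peak beside them at an unknown distance, among them peak_3425. Without these 8, the median deprived level of isolated peaks was 290.5 normalised reads and 3 of 501 were lower in deprived cells.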
